A study of Mus musculus with 12 samples.

Results

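Callosal and corticofugal identity factors are the transcriptional regulators that newborn neurons of the cerebral cortex use to take on the fate of a cell projecting across the corpus callosum or of a cell projecting down to the thalamus, brainstem and spinal cord. The genes described here are Bcl11a, Bcl11b, Fezf2, Tbr1, Sox5, Tle4 and Zfpm2, taken by symbol from the gene list of the deposited matrices, where each of the 7 symbols occurs once among 55335 genes. The rule itself uses no measured value, but the set was proposed with earlier results of these data known.

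Nuclei came from the forebrain of C57BL/6 mice at postnatal day 1, and each of the 12 single-nucleus RNA-seq libraries held 1 animal. The 8 WT libraries came from 5 males and 3 females with both Myt1l alleles intact, and the 4 Het libraries from 3 males and 1 female carrying 1 copy of the frameshift allele (strain label MYT1L S710fsX). The labels name no treatment. MYT1L is a zinc finger transcription factor of neurons, and loss of 1 copy in people causes MYT1L syndrome. The labels give the tissue as forebrain, while the study's methods speak of prefrontal cortex in 1 place, so the extent of the dissection is uncertain. The pups came from several litters, and no source used here ties a library to its litter.

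In the cortex, FEZF2 and its downstream partner BCL11B (CTIP2) direct the fate of layer 5 neurons that project to the brainstem and spinal cord. TBR1 and SOX5 are best known in layer 6 and the subplate, where TBR1 restrains Fezf2 and Bcl11b and SOX5 controls the order in which deep-layer classes emerge. TLE4, a Groucho-type corepressor, and ZFPM2 (FOG2), a cofactor of GATA proteins, mark corticothalamic neurons of layer 6. BCL11A (CTIP1), a close relative of BCL11B, acts in callosal and deep-layer neurons. Outside the cortex, Bcl11b is a standard marker of medium spiny neurons of the striatum, which carry dopamine receptor D1 or D2.

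On GRCm38 the genes lie on 7 chromosomes. Bcl11a spans chr11:24078056-24174123 on the plus strand, Bcl11b chr12:107910403-108003602 on the minus strand, Fezf2 chr14:12342094-12348189 on the minus strand, Tbr1 chr2:61802930-61814114 on the plus strand, Sox5 chr6:143828425-144781977 on the minus strand, Tle4 chr19:14448150-14598051 on the minus strand and Zfpm2 chr15:40655035-41104592 on the plus strand. Other annotated genes overlap Bcl11a (2, both on the opposite strand), Sox5 (7, of which 5 are on the opposite strand) and Zfpm2 (3, all on the same strand), and none overlaps the other 4. No source used here states whether counting used the strand, so reads of these overlapping genes cannot be told apart from those of the member with certainty. In excitatory nuclei the overlapping genes held few unique molecular identifiers (UMIs, 1 per captured transcript) beside the members: at most 1064 (Gm44068) against 84924 for Sox5, at most 362 (Gm49526) against 35130 for Zfpm2 and at most 316 (Gm12064) against 24811 for Bcl11a.

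Promoter windows of 300 bases, from 250 before to 50 after an annotated start (RefSeq, GRCm38.p6), were found for 6 of the members in 7 windows, with 2 windows for Tle4. They were searched on both strands for the core letters bound by Sox proteins (ATTGTT, or AACAAT on the other strand) and for the letters of a T-box site (GGTGTGA, or TCACACC on the other strand), because a Sox and a T-box factor are among the members. The 3 windows with a match are shown, 5′ to 3′ along the gene, with the match in capitals: Bcl11a at chr11:24080445-24080744 (plus strand), Tbr1 at chr2:61804203-61804502 (plus strand) and Tle4 at chr19:14597164-14597463 (minus strand).
Bcl11a: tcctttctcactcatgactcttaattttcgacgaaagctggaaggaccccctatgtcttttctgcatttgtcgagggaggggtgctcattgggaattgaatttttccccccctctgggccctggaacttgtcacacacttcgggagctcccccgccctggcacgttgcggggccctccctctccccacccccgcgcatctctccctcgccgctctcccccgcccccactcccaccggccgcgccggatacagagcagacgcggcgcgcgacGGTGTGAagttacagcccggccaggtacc
Tbr1: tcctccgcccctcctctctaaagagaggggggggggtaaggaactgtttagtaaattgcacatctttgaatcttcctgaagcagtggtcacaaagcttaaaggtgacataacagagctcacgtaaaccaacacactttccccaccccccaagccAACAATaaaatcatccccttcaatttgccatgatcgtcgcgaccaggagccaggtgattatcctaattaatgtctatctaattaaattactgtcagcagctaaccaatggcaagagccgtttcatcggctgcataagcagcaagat
Tle4: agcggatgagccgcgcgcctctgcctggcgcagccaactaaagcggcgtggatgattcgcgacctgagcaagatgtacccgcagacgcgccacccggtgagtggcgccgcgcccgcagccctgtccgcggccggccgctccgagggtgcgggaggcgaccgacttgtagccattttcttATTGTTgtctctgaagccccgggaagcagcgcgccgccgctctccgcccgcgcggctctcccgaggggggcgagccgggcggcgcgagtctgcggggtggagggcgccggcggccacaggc
The Sox letters stood in 2 of the 7 windows, against 10.7% of 32851 windows of all genes, and the T-box letters in 1 of the 7, against 4.0%. The match lay 96 bases before the start in Tbr1, on the opposite strand, 71 bases before it in Tle4 and 21 bases after it in Bcl11a. All 3 windows shown lie at RefSeq starts inside the gene's annotated span in the files' build and not at its outermost start. The same holds for the windows of Bcl11b (chr12:108003365-108003664), Sox5 (chr6:143947057-143947356) and Fezf2. These are matches of letters only, and the data hold no measurement of binding.

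Of 126684 deposited nuclei, 96441 were kept after filters on UMIs, genes, mitochondrial share and doublets (56412 WT and 40029 Het), with a median of 1931 UMIs and 1186 genes per nucleus and 10142175 to 25268239 UMIs per library. Over all deposited barcodes the library totals ran from 15439429 to 40784144 UMIs. No barcode was shared between libraries. Nuclei were put into classes by marker genes other than the members. Kept nuclei that met no gate, which were more than those that met one, enter only the results over all nuclei. Of the kept nuclei, 18303 passed as cortical excitatory neurons (1021 to 2156 per library), and of these 7924 had upper layer, 1896 layer 5 and 2651 layer 6 markers, 48 had L6b/subplate markers and 5784 passed no layer gate. Genes held out of the gates were most distinct for the upper layer gate: Cux1, an upper-layer homeobox gene, was detected in 60.8% of upper layer, 23.8% of layer 5 and 15.99% of layer 6 nuclei, and Lhx2 in 13.5%, 8.5% and 1.8%. The deep gates were less distinct. Ntsr1, which marks corticothalamic neurons, was detected in 14.8% of layer 6 nuclei but also in 9.7% of upper layer nuclei, and the layer 5 marker Pou3f1 and the layer 6 marker Grp went against their gates (4.3% of layer 5 against 6.7% of upper layer, and 1.1% of layer 6 against 3.2% of upper layer), while the layer 5 marker Chst8 went with its gate (6.0% against 1.9%).

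Across these gates the 7 genes fell into a clear pattern. Zfpm2, Tle4, Sox5, Bcl11b, Fezf2 and Tbr1 were all higher in layer 6 than in upper layer nuclei, in 12 of 12 libraries each, and Bcl11a was lower. Levels are given as CPM, the UMIs of a gene scaled to the total UMIs of the class in each library, and differences are log2 differences from edgeR's quasi-likelihood test with the library as a block, Benjamini-Hochberg adjusted over all genes tested and called at an adjusted p under 0.05 and a difference of at least 0.2. All 7 members were called between layer 6 and upper layer, where 27.3% of 10908 genes were called (14.1% higher and 13.2% lower in layer 6).

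No level was corrected for RNA outside nuclei. The part of such background in the upper layer detection shares of Tle4, Zfpm2, Fezf2 and Bcl11b, given further on, was not tested. Differences of these genes from upper layer are therefore differences of measured levels and may understate the fold.

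Tle4 showed the widest gap in measured level. In layer 6 its 12 libraries ran from 1102 to 1657 CPM with a median of 1465, and in upper layer nuclei from 32.0 to 97.3 CPM with a median of 45.5. No library of one gate reached the range of the other, and the log2 difference was 4.82 ± 0.098 (SE, edgeR adjusted p = 1.61467e-26). The SE of each edgeR difference was derived as its absolute size divided by the square root of the quasi-likelihood F statistic. Layer 5 lay between, from 98.3 to 480.7 CPM with a median of 341.1, which was 2.63 ± 0.10 above upper layer and 2.19 ± 0.10 below layer 6 on the log2 scale.

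Zfpm2 ran from 1689 to 2717 CPM in layer 6 (median 2353), from 352.2 to 1013 in layer 5 (median 599.3) and from 190.5 to 411.6 in upper layer (median 256.1). Layer 6 stood apart from both other gates, and layer 5 and upper layer overlapped in range although layer 5 was higher in 12 of 12 libraries. The log2 differences were 3.12 ± 0.059 for layer 6 against upper layer, 1.25 ± 0.080 for layer 5 against upper layer and 1.88 ± 0.072 for layer 6 against layer 5.

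Sox5 was present in every layer and followed the same order. Its levels ran from 3219 to 4715 CPM in layer 6 (median 3547), from 1519 to 2298 in layer 5 (median 1672) and from 836.8 to 1457 in upper layer (median 1191). The 3 ranges did not overlap, with log2 differences of 1.72 ± 0.056 for layer 6 against upper layer, 0.66 ± 0.045 for layer 5 against upper layer and 1.06 ± 0.047 for layer 6 against layer 5.

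Fezf2 was sparse at this depth, with 254 UMIs in all layer 6, 136 in all layer 5 and 97 in all upper layer nuclei. It nevertheless ran from 20.3 to 55.6 CPM in layer 6 (median 34.8), from 12.2 to 37.1 in layer 5 (median 22.9) and from 2.88 to 7.08 in upper layer (median 4.68), so that both deep gates stood apart from the upper layer. Layer 6 exceeded upper layer by 2.97 ± 0.15 and layer 5 exceeded it by 2.34 ± 0.18 on the log2 scale. Layer 6 was above layer 5 by 0.63 ± 0.15 (edgeR adjusted p = 0.00155, higher in 11 of 12 libraries), a difference that fell to 0.40 with an adjusted p of 0.0961 when each gate asked 1 more marker.

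Bcl11b ran from 183.0 to 267.6 CPM in layer 6 (median 226.9), from 107.5 to 277.6 in layer 5 (median 201.6) and from 31.5 to 139.0 in upper layer (median 73.1). It was 1.72 ± 0.11 higher in layer 6 and 1.47 ± 0.091 higher in layer 5 than in upper layer on the log2 scale, in 12 of 12 libraries each. Layers 5 and 6 overlapped widely. Their difference of 0.24 ± 0.076 (edgeR adjusted p = 0.0213, higher in layer 6 in 10 of 12 libraries) passed the thresholds in all libraries, but it missed them in DESeq2 (0.25, adjusted p = 0.106), without WT female 1 (0.22), WT female 2 (0.21), Het male 1 (0.21) or Het male 2 (0.21), and turned to -0.10 with 1 more marker per gate (adjusted p = 0.53). The order of Bcl11b between the deep gates was not resolved.

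Tbr1, a sparse gene with 738 UMIs in layer 6 and 267 in layer 5, ran from 66.7 to 139.3 CPM in layer 6 (median 105.2), from 28.2 to 82.1 in layer 5 (median 45.9) and from 29.5 to 87.6 in upper layer (median 47.5). Layer 6 was higher in 12 of 12 libraries, by 1.15 ± 0.095 over upper layer and 1.17 ± 0.12 over layer 5 on the log2 scale. Layer 5 and upper layer did not pass the test (-0.04 ± 0.098, edgeR adjusted p = 0.851, higher in layer 5 in 5 of 12 libraries).

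Bcl11a ran the other way. It reached 410.2 to 851.4 CPM in upper layer (median 559.0), 302.5 to 701.6 in layer 5 (median 370.2) and 332.1 to 575.0 in layer 6 (median 421.6). The ranges overlapped, but within a library upper layer was higher than layer 5 in 12 of 12 cases and than layer 6 in 10 of 12, with log2 differences of -0.41 ± 0.052 for layer 5 against upper layer and -0.39 ± 0.058 for layer 6 against upper layer (edgeR adjusted p = 1.87824e-06 for the latter). Layers 5 and 6 did not pass the test for Bcl11a (0.01 ± 0.067, adjusted p = 0.942). In all, 6 of the 7 members were called between layer 5 and upper layer, where 17.0% of 10196 genes were called (10.5% higher and 6.53% lower in layer 5), and 6 of 7 between layer 6 and layer 5, where 20.9% of 7555 genes were called (9.68% higher and 11.2% lower in layer 6).

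Other genes of the cortical identity network, listed for this purpose, separated the gates as well. Of 26 listed genes 15 are not gate markers, and of these 5 were called higher and 9 lower in layer 6 than in upper layer. Nuclear factor I genes went with layer 6: Nfia was 2.11 ± 0.068 and Nfib 1.66 ± 0.059 higher there than in upper layer, in 12 of 12 libraries each. Cux1 and Lhx2 were 2.92 ± 0.074 and 2.94 ± 0.16 lower in layer 6 than in upper layer, which puts them in the opposite direction to 6 of the members. Between layer 5 and upper layer 6 of the 14 tested genes outside the gates were called higher and 8 lower, and between layer 6 and layer 5 the counts were 5 and 9.

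Looking over all 15 classes, each member had its own order, and only part of it was cortical. Neighbours in each order were compared with an exact two-sided sign-flip permutation test over libraries on log2(CPM + 1), adjusted over the 14 neighbour pairs of a gene, and the ± values are SDs over the libraries (12, or 10 to 11 for mural and microglial nuclei, which some libraries held in too small numbers).

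**Figure D1:**
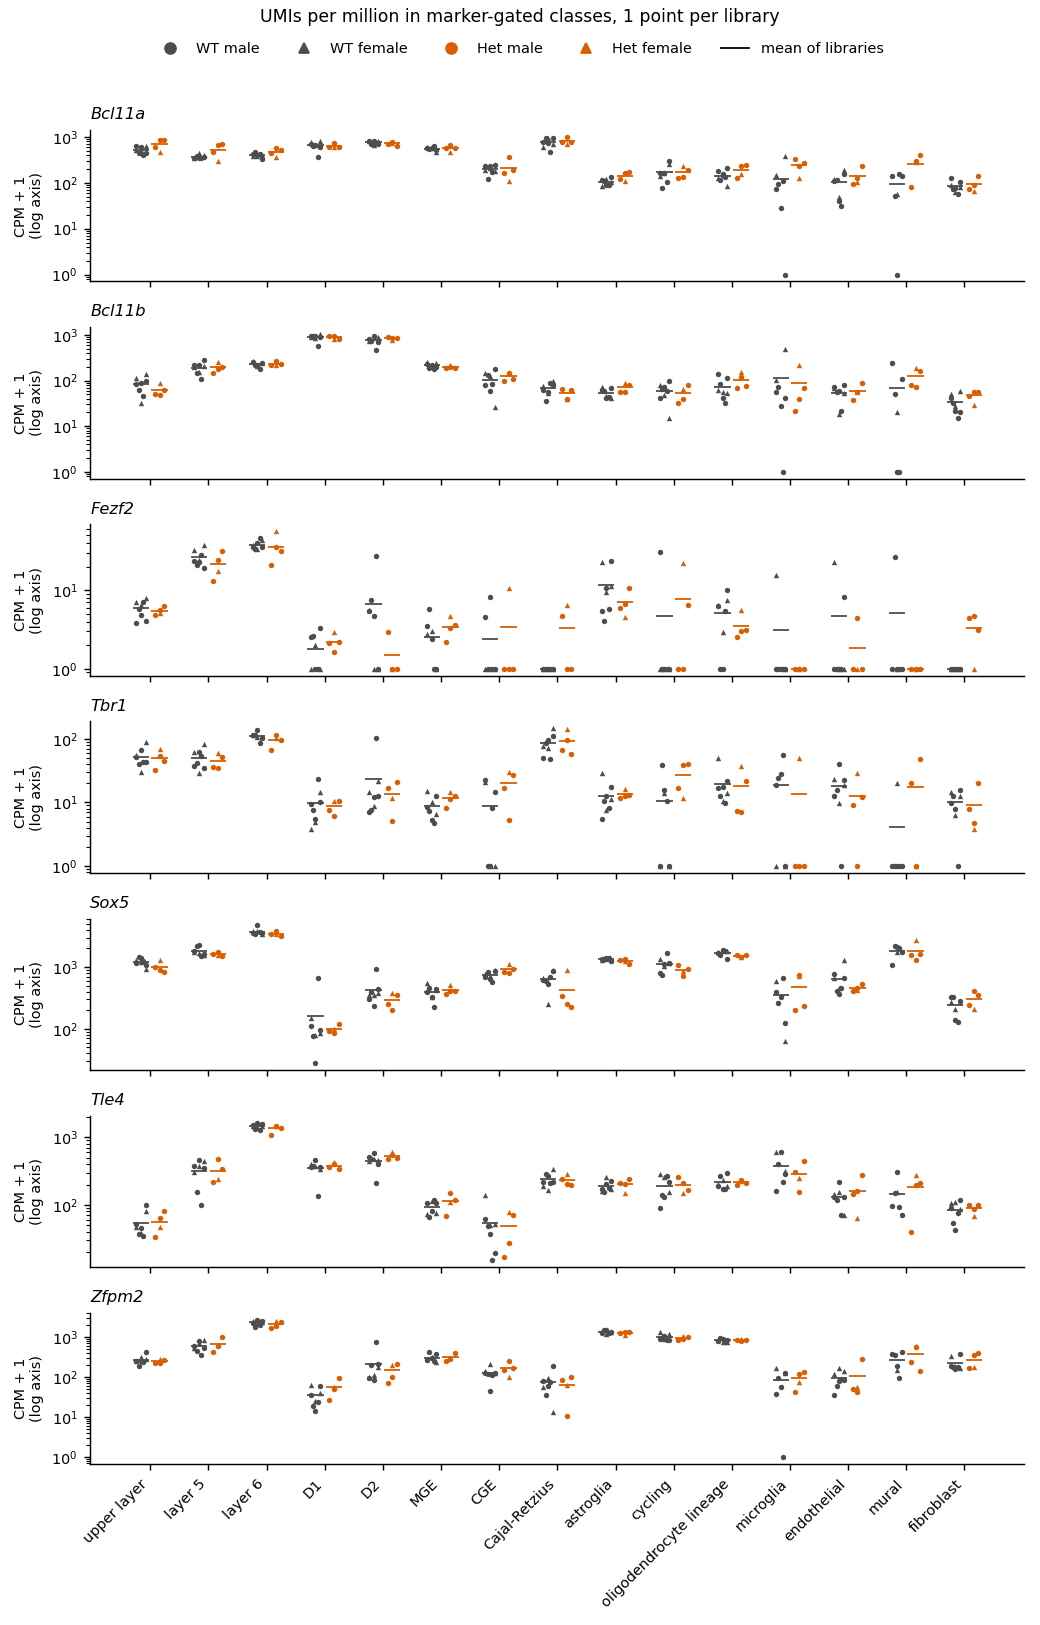
Level of each member in 15 marker-gated classes, 1 panel per gene, with CPM + 1 on a log axis. Each point is 1 library (grey WT, orange Het, circles male, triangles female) and each bar the mean of a genotype. Tle4, Zfpm2, Sox5, Fezf2 and Tbr1 have their highest mean in layer 6 nuclei, Bcl11b in D1 nuclei and Bcl11a in Cajal-Retzius nuclei.

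Fezf2 was highest in layer 6 (36.6 ± 8.72 CPM), followed by layer 5 (23.7 ± 6.94), and both steps down to the next class passed the test (adjusted p = 0.0068 each). With the gates used here the third class was astroglia with 9.12 ± 6.66 CPM, which did not differ from upper layer nuclei beyond its spread (adjusted p = 0.0957), and every other class averaged at or below 4.76 CPM. Tbr1 was highest in layer 6 (105.2 ± 17.9 CPM) and in Cajal-Retzius nuclei, the early-born cells of layer 1 (87.4 ± 33.3), and these classes did not differ beyond their spread (adjusted p = 0.20). Cajal-Retzius nuclei exceeded upper layer nuclei (adjusted p = 0.0068), upper layer and layer 5 did not differ (adjusted p = 0.485), and all classes outside the cortical excitatory and Cajal-Retzius gates averaged at or below 19.4 CPM with the gates used here.

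Bcl11b was a striatal gene first. D1 nuclei averaged 890.2 ± 119 CPM and D2 nuclei 803.7 ± 132, the step between them passed the test (adjusted p = 0.0182, higher in D1 in 9 of 12 libraries), and layer 6 followed far below at 229.7 ± 24.5. Interneurons of the medial ganglionic eminence (MGE) had 209.2 ± 25.7 CPM, just under layer 6 (adjusted p = 0.0427) and not separable from layer 5 (192.5 ± 48.4, adjusted p = 0.298). Upper layer nuclei, at 75.4 ± 32.0 CPM, were not separable from oligodendrocyte-lineage nuclei (82.7 ± 39.1, adjusted p = 0.871) or Cajal-Retzius nuclei (62.2 ± 19.9, adjusted p = 0.375). Its relative Bcl11a was spread over neurons in general. It led in Cajal-Retzius (779.9 ± 157 CPM), D2 (745.2 ± 62.7) and D1 nuclei (646.9 ± 117), then upper layer (579.2 ± 146) and MGE nuclei (558.8 ± 53.5), and the only passed step among these 5 was D2 over D1 (adjusted p = 0.0068). MGE exceeded layer 6 (adjusted p = 0.0034), layer 5 exceeded interneurons of the caudal ganglionic eminence (CGE, 198.6 ± 64.3 CPM, adjusted p = 0.0034), and every class outside the neurons averaged at or below 169.8 CPM.

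Tle4 stood highest in layer 6 (1430 ± 146 CPM), then in D2 (476.3 ± 103) and D1 nuclei (361.8 ± 80.4), and each of these steps passed the test in 12 of 12 libraries (adjusted p = 0.0034). Microglia (340.8 ± 158) and layer 5 (320.6 ± 122) followed without a resolved step, and upper layer nuclei (53.7 ± 21.3) came next to last, below fibroblasts (85.4 ± 22.8, adjusted p = 0.0046). Sox5 and Zfpm2 were shared between layer 6 and glia. Sox5 fell from layer 6 (3663 ± 390 CPM) to mural nuclei (1808 ± 471, adjusted p = 0.0137 over 10 libraries), with layer 5 (1752 ± 257) and the oligodendrocyte lineage (1647 ± 180) not separable from the class before them, then astroglia (1311 ± 81.8) and upper layer (1151 ± 201, adjusted p = 0.0219 below astroglia). It was lowest in D1 nuclei (138.7 ± 165). Zfpm2 fell from layer 6 (2256 ± 333 CPM) to astroglia (1331 ± 113), cycling nuclei (973.9 ± 148), the oligodendrocyte lineage (836.8 ± 61.6), layer 5 (622.6 ± 188) and mural nuclei (312.1 ± 179), and each of these 5 steps passed the test (adjusted p from 0.0034 to 0.015). It was also lowest in D1 nuclei, at 41.1 ± 23.1.

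One library touches the striatal values. WT male 4 held 14 D1 and 11 D2 nuclei, the fewest of any library, and its Sox5 stood at 655.5 CPM in D1 and 940.8 in D2 against at most 146.4 and 439.2 in the other WT libraries. Without it Sox5 averaged 91.7 ± 29.4 CPM in D1 and 329.6 ± 73.6 in D2 nuclei, Zfpm2 42.8 ± 23.4 and 142.6 ± 57.9, and Bcl11b 919.7 ± 64.3 and 834.0 ± 84.2. The D1 and D2 gates asked for an inhibitory marker, a condition added after Fezf2 and Tbr1 UMIs had been seen in a first D2 gate. Without that condition the WT libraries averaged 14.2 CPM of Fezf2 and 1031 CPM of Sox5 in D2 nuclei, against 5.71 and 423.3 with it. Tbr1 averaged 32.2 CPM in WT and 20.05 CPM in Het D2 nuclei without that condition, and Fezf2 1.73 CPM in Het D2 nuclei. The Fezf2 value of 5.71 includes 26.1 CPM from 1 UMI in WT male 4, and over the 11 other libraries, Het included, Fezf2 averaged 1.955 CPM in D2 nuclei.

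The genes whose levels followed a member most closely over the 15 classes were named from the WT means, among 11623 genes that reached 20 CPM in a class. These correlations of log2(CPM + 1) describe 15 classes drawn from the same libraries and carry no test. For Bcl11a they were 5730522E02Rik (r = 0.95), the teneurin Tenm4 (0.95) and 9330162G02Rik (0.95). For Bcl11b they were Gm28905 (0.94), the mu opioid receptor Oprm1 (0.92) and Gm10754 (0.92), each highest in D1 nuclei. For Fezf2 they were the metalloproteinase Adamts18 (0.92), Sybu (0.84) and Gm44068 (0.84), each highest in layer 6. For Tbr1 they were the dynein chain Dync1i1 (0.91), Gm42919 (0.87) and the adenylyl cyclase Adcy2 (0.87). Sox5 was followed by the ATP citrate lyase Acly (0.86), Gm44068 (0.85), which lies inside Sox5 on its strand, and Gm49397 (0.84). Tle4 was followed by the gate marker Hs3st4 (0.82), Xpr1 (0.79) and the ephrin receptor Ephb1 (0.75), and Zfpm2 by Gm49526 (0.88) and Gm49524 (0.85), both inside Zfpm2 on its strand, and Xylt1 (0.82). Among the members themselves Sox5 and Zfpm2 (r = 0.78), Fezf2 and Sox5 (0.77), Fezf2 and Zfpm2 (0.73) and the relatives Bcl11a and Bcl11b (0.72) had the closest patterns, and Sox5 and Bcl11b the most opposed (-0.27).

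Detection in single nuclei was compared after each nucleus had been thinned to 1000 UMIs, which left 17463 excitatory nuclei, 443 WT and 397 Het nuclei being shallower. Sox5 was detected in 59.5% of them (73.6% without thinning), Bcl11a in 35.7% (57.2%), Zfpm2 in 28.6% (39.2%), Tle4 in 18.9% (25.5%), Bcl11b in 10.9% (20.5%), Tbr1 in 5.87% (13.5%) and Fezf2 in 1.397% (3.36%). In layer 6 nuclei the shares were 87.2% for Sox5, 75.8% for Zfpm2, 69.8% for Tle4, 20.1% for Bcl11b, 9.58% for Tbr1 and 3.93% for Fezf2, and in upper layer nuclei 50.5%, 15.1%, 4.59%, 6.05%, 5.10% and 0.486% in the same order, while Bcl11a was detected in 30.5% of layer 6 and 40.8% of upper layer nuclei.

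RNA outside nuclei can add UMIs to every class, so the shares of endothelial and other classes are given beside those of the layer gates. Gates outside the neurons, and the Cajal-Retzius gate, took only nuclei with no excitatory and no inhibitory marker. That condition can lower the shares of neuronal genes there, so they do not measure the background in excitatory nuclei. In endothelial nuclei, at a median of 1706 UMIs before thinning against 2511 in excitatory nuclei, Bcl11b was detected in 4.56%, Tbr1 in 1.39% and Fezf2 in 0.127% of thinned nuclei. The Bcl11b share of upper layer nuclei was below the 6.38% of oligodendrocyte-lineage nuclei, the 6.57% of microglia and the 6.70% of mural nuclei. It was above those of endothelial, astroglial (5.44%) and fibroblast nuclei (3.64%), and the part of background in it was not tested. Bcl11b shares in layer 5 (15.3%) and layer 6 were above all of these classes. The Tbr1 shares of all 3 layer gates were above those of endothelial, oligodendrocyte-lineage (1.30%) and astroglial nuclei (0.966%). For Fezf2 the layer 5 (2.49%) and layer 6 shares were above these classes. The upper layer share was above those of endothelial and D1 nuclei (0.0631%). It was below those of astroglia (0.735%), cycling nuclei (0.525%) and microglia (0.505%). Fezf2 was detected in 0 of 1816 D2, 0 of 588 Cajal-Retzius and 0 of 1976 fibroblast nuclei. These counts depend on the gates, each of which left out nuclei with an excitatory marker. The D2 gate was also changed after Fezf2 UMIs had been seen in it, and without that change Fezf2 averaged 14.2 CPM in WT D2 nuclei. The part of background in its upper layer share was not tested. The Tle4 share of upper layer nuclei lay below the 13.6% of endothelial nuclei and above the 3.03% of CGE interneurons. In layer 5 the Tle4 share (14.2%) was below the 18.5% of oligodendrocyte-lineage nuclei. The part of background in these Tle4 shares was not tested. Bcl11a shares were above those of endothelial (8.37%), oligodendrocyte-lineage (11.03%) and astroglial nuclei (9.13%) in all 3 gates. The Zfpm2 share of upper layer nuclei was above the 6.59% of endothelial, 5.61% of Cajal-Retzius and 3.12% of D1 nuclei. It was below the 15.6% of fibroblasts, the 17.8% of MGE interneurons and the shares of mural, cycling, oligodendrocyte-lineage and astroglial nuclei. The part of background in it was not tested. Sox5 shares of upper layer and layer 5 (61.5%) nuclei were above the 26.6% of endothelial nuclei and below the 66.5% of astroglia and the 75.2% of the oligodendrocyte lineage, and the part of background in them was not tested.

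Few nuclei had UMIs of many of the factors at this depth. These are counts of detection at 1000 UMIs, which leave out nuclei that express a factor without a UMI of it, and Fezf2 in particular was detected in 1.397% of nuclei. Among the thinned excitatory nuclei 14.3% had none of the 7 detected, 39.3% had 1, 26.1% had 2, 13.1% had 3, 5.74% had 4 and 1.31% had 5. Only 14 nuclei had 6, and 0 of 17463 had all 7, which allows a share of up to 0.0172% of nuclei with UMIs of all 7 (3 counts, counting error only) and sets no limit on nuclei that express all 7. Upper layer and layer 5 nuclei most often held 1 member (47.8% and 41.6%), and layer 6 nuclei most often held 3 (39.0%), with none detected in 18.5% of upper layer and 1.71% of layer 6 nuclei. Of 128 possible combinations 102 occurred. Sox5 alone was the most frequent (3693 nuclei, 21.1%), followed by none (2499), Bcl11a alone (1900), Bcl11a with Sox5 (1784) and Sox5 with Tle4 and Zfpm2 (933). The last of these, the corticothalamic set, made up 24.9% of layer 6 and 0.315% of upper layer nuclei.

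**Figure D2:**
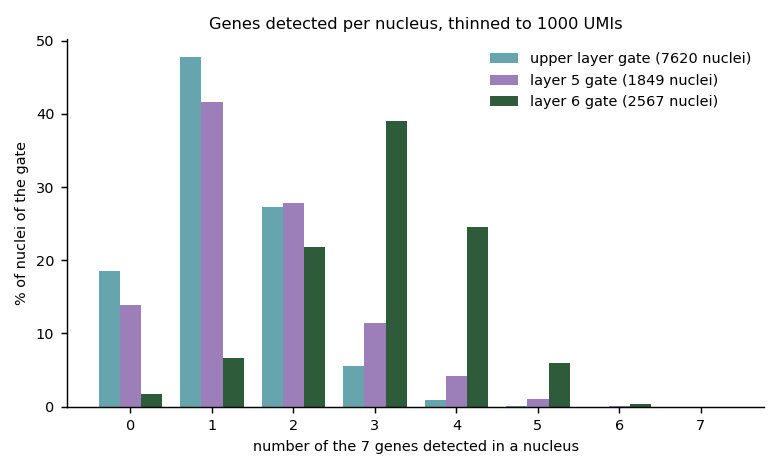
Share of the nuclei of each gate, in percent, by the number of the 7 members detected after thinning to 1000 UMIs, for the upper layer, layer 5 and layer 6 gates. Layer 6 peaks at 3 members (39.0%), and the other gates at 1 (47.8% and 41.6%).

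Turned around, the nuclei that held a factor came from different gates. Of 3301 nuclei with Tle4, 54.3% were layer 6 and 10.6% upper layer nuclei, against 14.7% and 43.6% of all thinned excitatory nuclei. Layer 6 also held 41.4% of 244 nuclei with Fezf2, 39.0% of 4996 with Zfpm2, 27.3% of 1897 with Bcl11b, 24.0% of 1025 with Tbr1 and 21.5% of 10396 with Sox5. Of 6238 nuclei with Bcl11a only 12.6% were layer 6 and 49.8% were upper layer nuclei.

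Co-detection was summarised per library as the log2 odds ratio that a nucleus with one gene detected also has the other, with 0.5 added to each cell of the count, and is given as the mean ± SD over 12 libraries. Nuclei of a library share their depth and layer mix, so these values describe the nuclei and carry no test. The strongest positive pair was Tle4 with Zfpm2, at 2.97 ± 0.40, with 2215 nuclei holding both against 944.4 expected if they were independent. Of nuclei with Tle4 67.1% also had Zfpm2, against 19.6% of those without Tle4. Fezf2 with Tle4 followed (2.02 ± 0.43, 120 nuclei against 46.1 expected), then Sox5 with Tle4 (1.85 ± 0.34, 2696 against 1965), Fezf2 with Zfpm2 (1.55 ± 0.32), Bcl11b with Tle4 (1.41 ± 0.23), Fezf2 with Sox5 (1.23 ± 0.43) and Fezf2 with Bcl11b (1.15 ± 0.63, 51 nuclei against 26.5), each above 0 in 12 of 12 libraries.

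Exclusion over all excitatory nuclei was weaker and involved Bcl11a. It was negative with Zfpm2 (-0.36 ± 0.15, above 0 in no library of 12) and with Sox5 (-0.45 ± 0.28, above 0 in 1). With Fezf2 it was -0.42 ± 0.65 (67 nuclei against 87.2 expected, above 0 in 3 of 12 libraries), a mean smaller than its spread over libraries. Over all excitatory nuclei Bcl11a was near independence with its relative Bcl11b (0.11 ± 0.33, 678 nuclei against 677.6 expected) and with Tbr1 (0.01 ± 0.40). Fezf2 and Tbr1, which are known to oppose each other, shared 13 nuclei against 14.3 expected, with a log2 odds ratio of -0.002 ± 1.16, so neither exclusion nor co-detection was resolved at this depth.

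**Figure D3:**
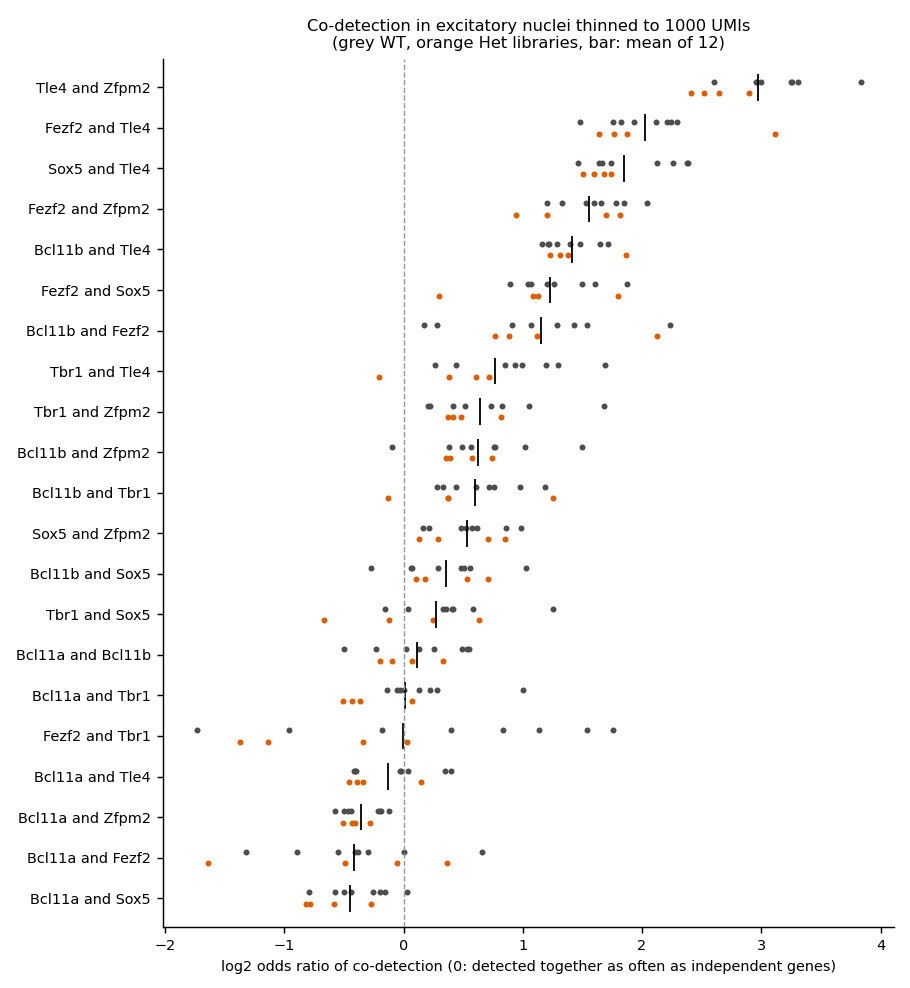
Log2 odds ratio of co-detection in thinned excitatory nuclei for the 21 pairs of members. Points are the 12 libraries (grey WT, orange Het), bars are means and 0 marks independence. Tle4 with Zfpm2 lies highest at a mean of 2.97 and Bcl11a with Sox5 lowest at -0.45.

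The same odds ratios were computed within gates, since members and gates go together. With the library as stratum, the pair of Tle4 and Zfpm2 kept 0.89 in upper layer, 2.83 in layer 5 and 1.15 in layer 6, and 1.85 with both layer and library as strata. Bcl11b with Tle4 was 1.16 in upper layer, 1.64 in layer 5 and 0.21 in layer 6. With layer and library as strata the other pairs above were also lower than over all excitatory nuclei, at 1.06 for Fezf2 with Tle4, 1.08 for Sox5 with Tle4 (0.03 in upper layer, 1.41 in layer 5 and 1.82 in layer 6 with the library alone as stratum), 0.84 for Bcl11b with Tle4, 0.76 for Fezf2 with Zfpm2, 0.73 for Fezf2 with Sox5 and 0.61 for Fezf2 with Bcl11b. These strata count the 5379 nuclei that passed no layer gate as a layer, so they do not hold layer fixed in them. With the library alone as stratum Fezf2 with Tle4 was 2.02, 1.59 and 0.32 in upper layer, layer 5 and layer 6. It rested on 6, 15 and 75 nuclei with both. Fezf2 with Zfpm2 was 0.64, 1.08 and 0.29 and Fezf2 with Sox5 0.10, 0.70 and 0.35 in the same order. With layer and library as strata the negative pairs of Bcl11a stood at -0.43 with Sox5, -0.28 with Zfpm2 and -0.37 with Fezf2. They were not alike in every gate. Bcl11a with Sox5 was -0.46 in upper layer, -0.42 in layer 5 and 0.02 in layer 6 (682 nuclei against 683.0 expected). With Zfpm2 Bcl11a was at -0.33, -0.05 and -0.42 in the same order, and with Fezf2 at -0.77, -0.86 and -0.41, from 11, 9 and 25 nuclei with both. Bcl11a with Tbr1 was 0.09 in upper layer, -1.25 in layer 5 (14 nuclei against 27.3 expected) and 0.01 in layer 6. Sox5 and Zfpm2 were negative in upper layer (-0.55) and layer 5 (-0.45) and positive in layer 6 (1.29). Bcl11b with Sox5 was -0.16 in upper layer, 0.71 in layer 5 and -0.58 in layer 6 (432 nuclei against 450.9 expected). Fezf2 with Bcl11b was 1.23 in layer 5 (14 nuclei against 7.02 expected) and -0.10 in layer 6 (19 against 20.3). The Bcl11b, Fezf2, Tle4 and Zfpm2 shares of upper layer nuclei were each below that of at least 1 class outside the neurons (for Tle4 the endothelial class, while the others were above it), and the part of background in these odds ratios, negative ones included, was not tested.

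Turning to genotype, the level of Myt1l itself does not check the labels, since the frameshift allele can still be transcribed and counted. In excitatory nuclei Myt1l ran from 1431 to 1858 CPM in the 8 WT libraries and was 1891, 2006, 1906 and 1876 CPM in the 4 Het libraries. All Het values were above all WT values, and the log2 difference of 0.18 ± 0.065 was not called (edgeR adjusted p = 0.294).

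No member was called by edgeR between Het and WT in all nuclei, in all excitatory nuclei or in any of the 15 classes where it was tested, with genotype as the only term. Calls were rare for all genes as well: 0.0147% of 13596 genes in excitatory nuclei (2 genes, while 1608 had an unadjusted p below 0.05 and DESeq2 called 47), 0.0866% of 8082 in MGE and 0.0292% of 3421 in CGE nuclei, and 0 in each other group. DESeq2, run only in all nuclei, excitatory nuclei, the layer gates and D1, D2 and MGE nuclei, called 0 members there too. Over excitatory nuclei Bcl11a and Sox5 had the smallest unadjusted p among the members.

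Bcl11a in excitatory nuclei ran from 378.2 to 516.4 CPM in WT (median 432.7), and the Het libraries had 566.8, 752.7 and 741.4 CPM in males and 378.7 in the female. The 3 Het males lay above all 8 WT libraries and the Het female near the WT minimum. The log2 difference was 0.45 ± 0.14 (edgeR adjusted p = 0.257), and it was called when no filter on low counts was used (0.45, adjusted p = 0.0149). Sox5 ran from 1474 to 2235 CPM in WT (median 1851) and was 1331, 1355 and 1344 CPM in the Het males and 1838 in the Het female. Again the 3 Het males lay outside the WT range, here below it, and the Het female inside it, and the log2 difference was -0.37 ± 0.12 (edgeR adjusted p = 0.278).

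Leaving out 1 library changed these results. The Bcl11a difference ran from 0.32 to 0.61 and the Sox5 difference from -0.50 to -0.31 as each library was left out. Without Het female 1, Bcl11a was 0.61 higher (edgeR adjusted p = 0.00543) and Sox5 0.50 lower in Het on the log2 scale (-0.50, adjusted p = 0.0366). Both were called among 308 genes, against 2 genes called with all libraries. With the 5 WT and 3 Het male libraries alone the values were 0.64 (adjusted p = 0.016) and -0.49 (adjusted p = 0.0308), among 201 genes called. Among females, 1 Het library stood against WT values of 417.4, 448.0 and 514.9 CPM for Bcl11a and 2026, 2157 and 1474 CPM for Sox5, so that sex and this 1 library cannot be told apart. The test of the sex by genotype difference in excitatory nuclei gave 0.92 for Bcl11a (edgeR adjusted p = 0.347) and -0.45 for Sox5 (adjusted p = 0.763), and it called 0 of 15125 genes, while 1025 had an unadjusted p below 0.05 and DESeq2 called 14.

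The mix of layers moved along with these values. Upper layer nuclei made up 56.8%, 52.5% and 44.4% of excitatory nuclei in the Het males and 37.1% in the Het female, against 31.9% to 48.6% in WT, and layer 6 nuclei 7.06%, 7.99%, 11.4% and 16.9%, against 9.10% to 25.5% in WT. Neither share passed the exact permutation test over libraries (41.0 ± 6.46% in WT against 47.7 ± 8.74% in Het for upper layer and 16.2 ± 6.29% against 10.8 ± 4.44% for layer 6, two-sided exact p = 0.158 each, adjusted p = 0.315). Leaving out 1 library moved the upper layer difference of 6.74 points to between 3.71 points without Het male 1 (adjusted exact permutation p = 0.582) and 10.3 points without Het female 1 (adjusted exact permutation p = 0.097), and without Het female 1 the layer 6 difference of -5.36 points was -7.38 points, with the same adjusted p. Since Sox5 was higher and Bcl11a lower in layer 6 than in upper layer nuclei, values within gates are given next. In the same nuclei the summed astroglial markers ran from 113.7 to 175.7 CPM in WT and were 135.9, 162.6 and 244.1 CPM in the Het males and 197.8 in the Het female, and the median nucleus held 2623 UMIs in WT and 2337 in Het. The part of these differences in the results was not tested.

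Within upper layer nuclei Bcl11a was 610.6, 843.4 and 851.4 CPM in the Het males and 457.9 in the Het female against 410.2 to 623.3 in WT, a log2 difference of 0.40 ± 0.14 (edgeR adjusted p = 0.41). In layer 5 it was 457.2, 655.5 and 701.6 CPM in the Het males, all above the WT range of 341.4 to 441.9, and 302.5 in the Het female, below it (0.51 ± 0.15, edgeR adjusted p = 0.387). In layer 6 it was 443.9, 575.0 and 514.9 CPM and 361.9 against 332.1 to 459.5 (0.22 ± 0.11, adjusted p = 0.629), with a difference of 0.11 without Het male 2 and 0.34 without Het female 1, neither of them called. Without Het female 1 the upper layer (0.56, adjusted p = 0.0316) and layer 5 differences (0.70, adjusted p = 0.00653) were called, while the layer 5 difference was 0.33 without Het male 3 (not called). Both were also called with male libraries alone (0.59, adjusted p = 0.0368, and 0.76, adjusted p = 0.012). Over all genes, 123 in upper layer and 31 in layer 5 nuclei were called without Het female 1, against 0 in each with all libraries. Counts over all genes with male libraries alone are given further on. Sox5 within upper layer nuclei was 1000.04, 896.5, 836.8 and 1285 CPM in Het against 939.3 to 1457 in WT (-0.29 ± 0.12, adjusted p = 0.515), called with male libraries alone (-0.48, adjusted p = 0.0303) but not without Het female 1 (-0.42, adjusted p = 0.0872). In layer 5 and layer 6 its differences were -0.15 ± 0.11 and -0.14 ± 0.096 (adjusted p = 0.818 and 0.774). With 1 library left out these ran from -0.19 (without Het male 2) to -0.09 in layer 5 and from -0.19 (without Het male 2) to -0.07 in layer 6, both nearest 0 without WT male 3, and neither was called.

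**Figure D4:**
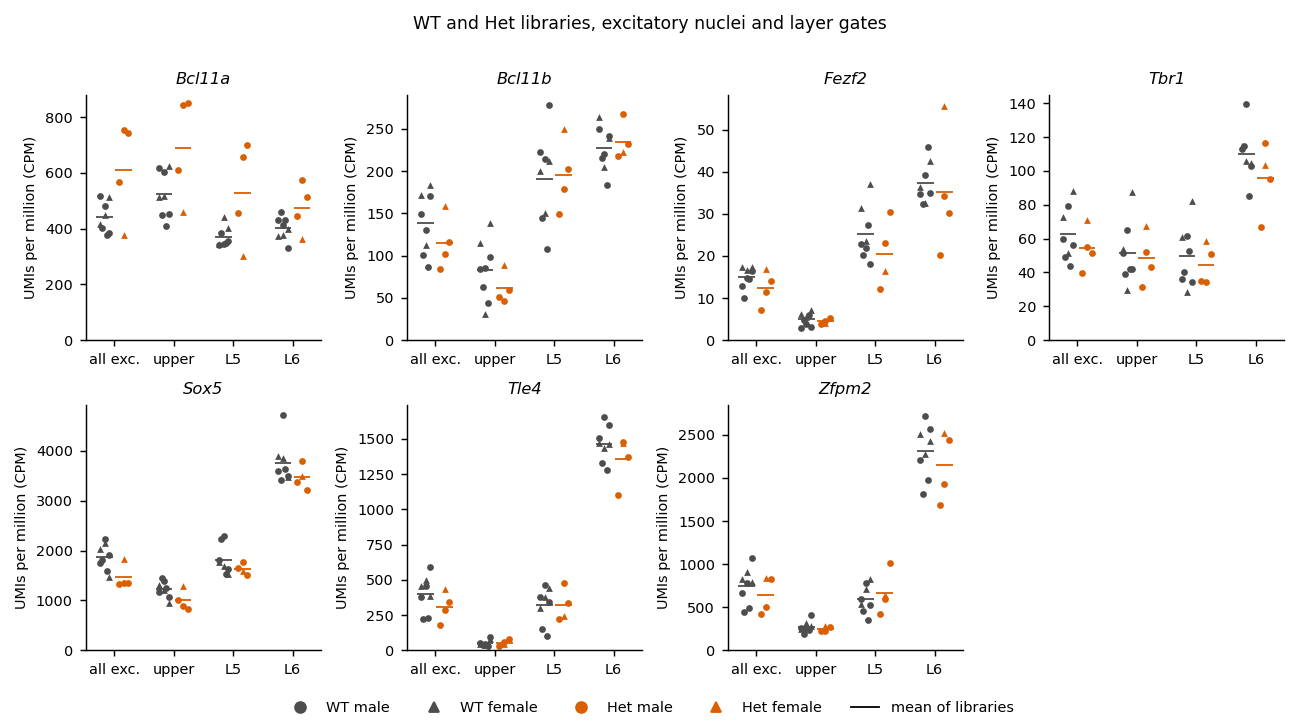
CPM of each member in excitatory, upper layer, layer 5 and layer 6 nuclei, by genotype, with males and females as different symbols. Points are libraries (8 WT and 4 Het) and bars are group means. Bcl11a in excitatory nuclei shows 3 Het libraries at 566.8 CPM or more and 1 at 378.7.

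The other 5 members had lower Het means over excitatory nuclei, and each overlapped between genotypes. Tle4 ran from 220.7 to 588.9 CPM in WT and was 176.6, 288.3, 345.8 and 432.8 CPM in Het (-0.39 ± 0.25, edgeR adjusted p = 0.571). Zfpm2 ran from 447.9 to 1068 CPM in WT and was 418.9, 501.7, 826.3 and 840.9 in Het (-0.23 ± 0.22, adjusted p = 0.725). Bcl11b (-0.28 ± 0.19), Fezf2 (-0.30 ± 0.19) and Tbr1 (-0.21 ± 0.17) had adjusted p of 0.586, 0.559 and 0.663. With 1 library left out none of these 5 was called, but all 5 values were lowest without Het female 1 (-0.59 for Tle4, -0.38 for Zfpm2, -0.47 for Bcl11b, -0.49 for Fezf2 and -0.37 for Tbr1) and nearest 0 without Het male 1 (-0.19, -0.07, -0.15, -0.09 and -0.08 in the same order). Within layer 6 nuclei, where these 5 had their highest mean among the cortical gates, their differences were between -0.21 for Tbr1 and 0.04 for Fezf2, with adjusted p from 0.773 to 0.99. The genotype difference was also compared between layer 6 and upper layer nuclei by an exact two-sided permutation test over libraries, and the smallest adjusted p among the 7 members was 0.786.

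**Figure D5:**
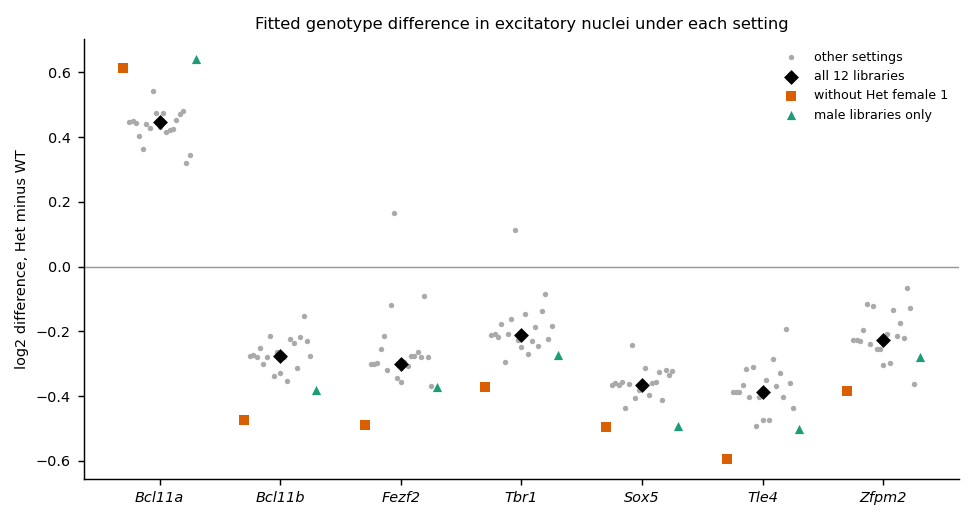
Het minus WT log2 difference of each member in excitatory nuclei, with all 12 libraries (black diamonds), without Het female 1 (orange squares), with male libraries only (green triangles) and under each other setting (grey points). Bcl11a moves from 0.45 with all libraries to 0.61 without Het female 1, and Sox5 from -0.37 to -0.50. With 1 library left out, their values nearest 0 were 0.32 and -0.31.

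Shares of nuclei with a member detected were compared as well. Over thinned excitatory nuclei Bcl11a was detected in 32.5 ± 3.29% of WT nuclei and 40.6 ± 9.75% of Het nuclei (two-sided exact permutation test over libraries, p = 0.0808, or 0.283 when adjusted over 7 members) and Sox5 in 62.9 ± 4.35% and 53.8 ± 8.00% (p = 0.0364, adjusted p = 0.255). The smallest p that 8 against 4 libraries allow is 0.00404. Without Het female 1 the differences were 12.6 points for Bcl11a and -13.0 points for Sox5, both with an adjusted exact permutation p of 0.0424. Leaving out each library in turn, the Bcl11a difference ran from 5.37 to 12.6 points and the Sox5 difference from -13.0 to -7.14 points. The shares of the other 5 members were lower in Het by 0.349 (Fezf2) to 4.64 points (Tle4) in mean, with adjusted p of 0.32 or more.

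Co-detection did not pass a test between genotypes for any of the 21 pairs of members, with p adjusted over the 28 pairs tested. The log2 odds ratio of Tle4 and Zfpm2 was 3.15 ± 0.36 in WT and 2.62 ± 0.21 in Het (exact two-sided permutation p = 0.012, adjusted p = 0.283) and that of Bcl11a and Tbr1 0.18 ± 0.36 and -0.31 ± 0.26 (p = 0.020, adjusted p = 0.283). With 28 pairs no single pair could reach an adjusted p under 0.05 in this design.

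Outside the cortical excitatory nuclei no member was called. In D1 nuclei Bcl11b averaged 892.2 ± 144 CPM in WT and 886.1 ± 63.9 in Het (-0.05 ± 0.11) and in D2 nuclei 783.3 ± 156 and 844.4 ± 63.9 (0.06 ± 0.13). Zfpm2 in D1 nuclei was 33.9 ± 18.1 and 55.5 ± 27.8 (0.72 ± 0.28, edgeR adjusted p = 0.839, and 0.41 without Het male 3), called when no filter on low counts was used (0.75, adjusted p = 0.016). In MGE interneurons Bcl11a was 554.1 ± 44.3 and 568.3 ± 75.7 (0.02 ± 0.086, adjusted p = 0.98). Bcl11a in astroglia was 104.9 ± 17.1 in WT and 141.0 ± 31.4 in Het (0.39 ± 0.14, adjusted p = 0.702). Sox5 in D2 nuclei was 423.3 ± 218 and 295.1 ± 84.2 (-0.36 ± 0.20, adjusted p = 0.961). That difference was -0.21 without Het male 2, -0.27 without WT male 4, whose 940.8 CPM came from 11 nuclei, and -0.50 without Het female 1, and none was called. In the D2 gate without an inhibitory marker Sox5 was at 1031 ± 313 and 554.8 ± 126 (-0.92, adjusted p = 0.0688). Zfpm2 in that gate was at 553.7 ± 155 and 293.5 ± 100 (-0.95, edgeR adjusted p = 0.0919).

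Of the 26 listed genes of the identity network 0 were called by edgeR between Het and WT in any group. In excitatory nuclei, where 11.8% of 13596 genes had an unadjusted p below 0.05, 7 of the 26 did. The 26 genes had a median difference there of 0.05 on the log2 scale, beside -0.004 over all genes tested. The 4 smallest p there belonged to Tshz3 (119.0 ± 15.6 CPM in WT and 89.8 ± 18.8 in Het, -0.42 ± 0.11, adjusted p = 0.225), the upper-layer genes Cux2 (194.0 ± 39.4 and 301.1 ± 91.2, 0.62 ± 0.18, adjusted p = 0.23) and Cux1 (326.1 ± 68.6 and 489.1 ± 127, 0.57 ± 0.17, adjusted p = 0.246), and the deep-layer gene Otx1 (5.05 ± 1.38 and 3.05 ± 0.654, -0.79 ± 0.24, adjusted p = 0.246). Cux2 is an upper layer gate marker. These values run over all excitatory nuclei, and the part of the layer mix in them was not tested.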

How the data were processed

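Single-nucleus RNA-seq was run on 12 forebrain libraries, barcoded by split pooling on 1 plate. The authors deposited, per library, UMI matrices made with the ScaleRna pipeline on mm10, whose values are estimated counts, since a small share are UMIs divided among genes (6.58% to 6.88% of values). Here the filter kept nuclei of 800 to 6000 UMIs and 300 to 3000 genes in which mitochondrial UMIs made up no more than 1% and log genes divided by log UMIs reached 0.9, and 3559 marked doublets of a caller set to mark 5% were removed. The study's own doublet caller differs, so the nuclei kept need not be the same.

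Nuclei were gated by 125 marker genes, a marker counting as detected at a value of 0.5 or more. Excitatory nuclei had at least 1 excitatory and no inhibitory marker, layer gates asked for 2 markers (3 in the stricter alternative), striatal and astroglial gates for 3. Gates outside the neurons and the Cajal-Retzius gate took only nuclei with no excitatory and no inhibitory marker, and the striatal and interneuron gates only nuclei with no excitatory marker. The scoring was set after the files had been seen, and the inhibitory marker asked of D1 and D2 nuclei was added after Fezf2 and Tbr1 UMIs had been seen in a first D2 gate. The members and lists were chosen with earlier results of these data known.

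UMIs were summed per library and class, rounded, and tested with edgeR 4.0.16 in R 4.3.3 (quasi-likelihood, TMM, filterByExpr, Benjamini-Hochberg), with at least 10 nuclei per library. The study used DESeq2, which was run as an alternative (version 1.42.0). Shares and odds ratios used exact permutation tests over libraries in Python 3.11.15 with SciPy 1.17.1. The scripts were tested on simulated data. Of the 28 pairs in the co-detection test 7 join a member to a gene that is not reported here. Named genes were the 7 members, network genes that were called or had the 4 smallest p, and for each member the 3 genes with the most similar class pattern. Each library is 1 animal, so p-values measure the spread between animals. Intervals and limits from counts cover counting error only. A contrast with L6b/subplate nuclei was not run, since libraries held 2 to 6 of them.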

Additional observations from a re-analysis of the deposited data

Results flagged for a closer look

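Of 85 groups of 4 Het or 8 WT libraries examined, 9 held a library that stood far from the others by Dixon's criterion, which chance gives in about 1 in 20 groups. Of these, 6 belong to the striatal nuclei of WT male 4, which held 14 D1 and 11 D2 nuclei. In its D1 nuclei Bcl11a was 361.7 CPM (next WT library 609.6), Bcl11b 565.1 CPM (875.0), Tle4 135.6 CPM (333.9) and Sox5 655.5 CPM (146.4), from 16, 25, 6 and 29 UMIs. In its D2 nuclei Sox5 was 940.8 CPM (439.2) and Zfpm2 731.8 CPM (211.9), from 36 and 28 UMIs.

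In the other groups Bcl11a in D1 nuclei of Het male 2 was 740.5 CPM, above the next Het library at 606.1. Sox5 in layer 6 nuclei of WT male 3 was 4715 CPM, above the next WT library at 3902. Sox5 in excitatory nuclei of Het female 1 was 1838 CPM, above the 3 Het males, of which the highest was 1355.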

How the results depend on the processing

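Between genotypes, 0 members were called with all libraries in excitatory, upper layer, layer 5, layer 6 and D1 nuclei. Without a filter on low counts 1 member was called in each of excitatory, upper layer and layer 5 (Bcl11a) and D1 nuclei (Zfpm2), and with male libraries only 2 in excitatory, 2 in upper layer and 1 in layer 5 nuclei. Over all genes, the 2 calls in excitatory nuclei became 168 without the filter, 47 with DESeq2, 201 with male libraries and 0 with the stricter gate. The 0 calls in upper layer nuclei became 205, 38 and 140 with the first 3 of these and 1 with all deposited barcodes, the 0 calls in layer 5 became 69, 3 and 33, and the 0 calls in layer 6 became 75 without the filter, 22 with male libraries, 1 with marked doublets kept, 3 with all barcodes and 4 with the stricter gate. DESeq2 called 14 genes for sex by genotype against 0. The causes were not tested.

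With the replicate number and sex as a replicate block, genes called were 0 in excitatory, 14 in upper layer, 26 in layer 5 and 1 in layer 6 nuclei, and 0 members. The numbers do not pair the animals: same-numbered libraries correlated at 0.024, 0.094, 0.031 and 0.205, and 1 of 4 pairs correlated best with its own number.

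Leaving out 1 library at a time gave 0 to 308 genes called in excitatory, 0 to 123 in upper layer, 0 to 31 in layer 5 and 0 to 40 in layer 6 nuclei, with each maximum without Het female 1, and 0 to 2, 0 to 1 and 0 to 1 members in the first 3. Members with a called detection share ranged from 0 to 2. The uncalled Zfpm2 difference in D2 nuclei ranged from -0.30 to 0.15 and was 0.073, 0.012, 0.15 and 0.073 without WT male 4, WT male 5, Het male 1 and Het male 2. Between layers, Tbr1 (layer 5 against upper layer) ranged from -0.07 to 0.01 and was 0.011 without WT male 1, and Bcl11a (layer 6 against layer 5) ranged from -0.02 to 0.07 and was -0.019, -0.0060, -0.0061 and -0.0028 without WT males 1 to 4 and -0.0090 without Het female 1.

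Signs turned in differences that were not called, for Fezf2 (0.16) and Tbr1 (0.11) in excitatory nuclei and Sox5 in layer 5 (0.030) with the stricter gate, Sox5 in layer 5 with all barcodes (0.0066), Zfpm2 in D2 nuclei with the replicate block (0.14), Tbr1 in layer 5 against upper layer (0.064) and Bcl11a in layer 6 against layer 5 (-0.013) with the stricter gate. Bcl11b in layer 6 against layer 5, which was called, turned to -0.10 with the stricter gate.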
